A study of Homo sapiens with 84 samples.

Results

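FaDu cells, an established HPV-negative line from a squamous carcinoma of the human hypopharynx, were treated with epidermal growth factor (EGF) for 6 h, and 8 of the 84 libraries of the series are described here. They were chosen by label: the libraries numbered 3 and 4 of cells that received EGF at 9 nM (EGFhigh) or 1.8 nM (EGFlow) form the EGF arm, with 4 libraries, and those of untreated cells and of cells given Fc, the recombinant immunoglobulin Fc region, form the control arm, with 4 libraries. All 8 cultures had been plated in medium with serum and then starved of serum before the agents were added, so that the controls are starved cells too. The FaDu libraries numbered 1 and 2 were left out because their profiles did not match those numbered 3 and 4, and they enter only a comparison given near the end. Nothing in the labels says that libraries of 1 group came from separate cultures, so that p-values measure the spread between these libraries, which may be technical. RNA was read by 3′ RNA-seq, in which each transcript gives a read near its end, and gene levels are given in CPM, counts scaled to a common library size (TMM scaling, over the genes tested for named genes and over all genes for the sums of markers).

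EGF binds the receptor EGFR at the surface of epithelial cells, and the activated receptor signals through RAS and the kinase ERK, through PI3K and AKT, and through further branches. ERK switches on immediate-early genes within minutes, many of which code for transcription factors such as FOS and EGR1, and later genes for growth factors, matrix proteins and phosphatases that switch ERK off again. In squamous carcinomas of the head and neck EGFR is a drug target, and strong EGFR activation can move tumour cells towards epithelial-to-mesenchymal transition (EMT), a programme of motility with partial loss of epithelial character.

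The 8 libraries held 7889819 to 11095198 counts on genes (median 9527806), 9437388 to 11095198 in the EGF arm and 7889819 to 9618224 in the control arm, and 3 counts, taken as the limit that a count of 0 allows, correspond to 0.27 to 0.38 CPM. Mitochondrial transcripts made up 7.998% to 9.517% of counts in the EGF arm and 8.514% to 10.99% in the control arm, and their part in the results below was not tested. The label of a squamous epithelial line was checked against markers: all 11 squamous markers looked up had more than 3 counts in each of the 8 libraries, as had all 5 markers of simple epithelium. Leukocyte markers were at or near 0 (summed level 0.347 to 1.28 CPM in control and 0.651 to 1.82 CPM in EGF libraries, 4 of 6 genes without a count). Fibroblast markers summed to 8.1 to 15.2 CPM in control and 10.1 to 13.6 CPM in EGF libraries, with 2 of 7 above 3 counts in each library, and the fibroblast marker LUM had no count. Of 5 endothelial markers 1 was above 3 counts in each library (summed level 2.79 to 7.89 and 4.99 to 9.32 CPM). Spearman correlations of log2 CPM across genes, which are not independent, were 0.967 to 0.985 between EGF libraries, 0.972 to 0.985 between controls, and 0.945 to 0.965 between arms. The first principal component of the 500 most variable genes (49.9% of variance) separated EGF from control libraries, and the second (13.9%) separated the libraries numbered 3 from those numbered 4.

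EGF changed the expression of 1313 of the 12458 genes tested (10.5%): 790 rose (6.34%) and 523 fell (4.2%). Genes of this kind are called differentially expressed genes (DEGs) below and had a Benjamini-Hochberg adjusted p of at most 0.05 in edgeR's quasi-likelihood test and an absolute log2 fold change (log2FC) over 0.5. Among the highest were the tissue factor gene F3 (log2FC 4.75), the EGFR ligand genes AREG (3.85) and EREG (4.12), the NF-kB inhibitor gene TNFAIP3 (5.02), and the transcription factor genes ETS1 (3.68) and CREB5 (4.19), whereas CAVIN2 (-4.74), CYP1A1 (-3.50) and SOX2 (-2.95) were among the lowest. The increases were the larger changes: 345 of the DEGs rose by a log2FC over 1 and 114 by over 2, against 224 and 39 that fell by as much. In 734 of the 790 genes that rose and 483 of the 523 that fell, the 4 EGF libraries did not overlap with the 4 controls in CPM, compared with 19% of all genes tested. A call on these same 8 libraries favours such a separation, which is therefore no further support for the DEGs. In bulk RNA a lower level can mean less RNA per cell or fewer cells of a kind, and these cannot be told apart here.

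**Figure D1:**
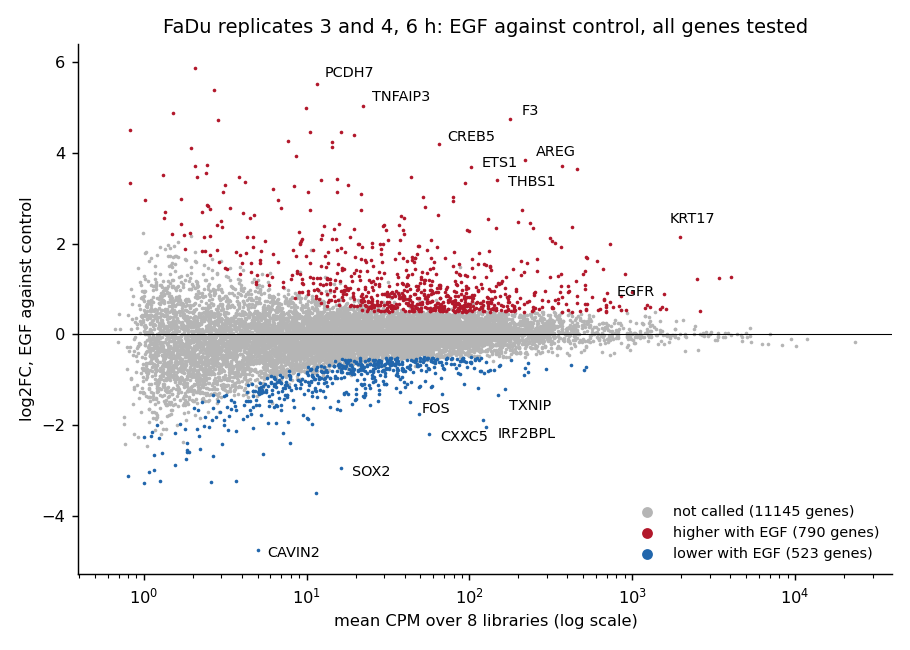
Each point is 1 of the 12458 genes tested, at its mean CPM over the 8 libraries (x, log scale) and its log2FC of EGF against control (y). The 790 genes that rose (red) reach higher above 0 than the 523 that fell (blue) reach below it.

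In the sentences that follow, each pair of CPM values gives the library numbered 3 first and that numbered 4 second. PCDH7, which codes for a protocadherin, a cell adhesion protein, had 0.465 and 0.700 CPM in untreated, 0.494 and 0.299 in Fc, 24.3 and 22.7 in EGFlow, and 25.7 and 18.1 in EGFhigh libraries (log2FC 5.51 ± 0.30 (SE), adjusted p = 1.7e-08). TNFAIP3, whose product A20 restrains NF-kB signalling, had 1.16 and 1.87 CPM in untreated, 1.61 and 0.699 in Fc, 33.5 and 64.4 in EGFlow, and 34.4 and 40.4 in EGFhigh libraries (log2FC 5.02 ± 0.31 (SE), adjusted p = 4.6e-08). SPHK1, the kinase that makes sphingosine-1-phosphate, had 0 and 1.28 CPM in untreated, 0.124 and 0.898 in Fc, 19.99 and 20.7 in EGFlow, and 19.6 and 16.4 in EGFhigh libraries (log2FC 4.99 ± 0.49 (SE), adjusted p = 6.2e-06). These 3 genes lay at or below 1.87 CPM in all 4 controls and between 16.4 and 64.4 CPM in all 4 EGF libraries. F3, which starts blood coagulation, went from 10.2–16.8 CPM in controls to 208–482 CPM (log2FC 4.75 ± 0.26 (SE), adjusted p = 1.7e-08), and TAGLN, an actin-binding protein of contractile cells, from 0.898–1.98 to 29.1–34.9 CPM (log2FC 4.46 ± 0.24 (SE), adjusted p = 1.7e-08). Among secreted factors, IL11, a cytokine of the interleukin-6 family, rose from 0–1.87 to 8.15–37.03 CPM (log2FC 4.45 ± 0.60 (SE), adjusted p = 0.00012) and epiregulin, EREG, from 0.348–2.50 to 15.7–38.4 CPM (log2FC 4.12 ± 0.45 (SE), adjusted p = 1.7e-05). The other genes of the top 12 were GLIPR1 (log2FC 4.39), the orphan nuclear receptor NR4A3 (4.25), SPOCD1 (4.22), the bZIP transcription factor CREB5 (4.19), and DAPP1 (3.92), an adaptor that binds the lipid products of PI3K. In all 12 genes the lowest EGF library was above the highest control, which is what the rule for naming them asked for. CREB5 had the smallest standard error of these genes, with 8.71 and 5.37 CPM in untreated, 7.41 and 5.49 in Fc, 145 and 118 in EGFlow, and 112 and 115 in EGFhigh libraries.

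The promoters of these 12 genes were searched for the AP-1 motif TGANTCA, which FOS and JUN proteins bind, for the CArG box, which serum response factor binds, and for the NF-kB motif, on both strands of the 250 bases before the start site (RefSeq, GRCh38.p14). The NF-kB motif was added after the results had been seen. Sequences for 10 of the 12 were in the table: AP-1 was in 2 of them (F3 and IL11), the NF-kB motif in 1 (TNFAIP3), and the CArG box in 0. Stretches of 60 bases around the matches are printed 5′ to 3′ on the strand of the gene, with the motif in capitals. TNFAIP3 (chr6:137867173-137867232, plus strand) holds the NF-kB motif at 2 places. F3 (chr1:94541943-94542002, minus strand) and IL11 (chr19:55370527-55370586, minus strand) hold AP-1 motifs:
TNFAIP3: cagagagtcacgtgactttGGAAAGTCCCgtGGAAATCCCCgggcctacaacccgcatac
F3: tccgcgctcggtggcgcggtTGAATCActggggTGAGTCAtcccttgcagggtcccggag
IL11: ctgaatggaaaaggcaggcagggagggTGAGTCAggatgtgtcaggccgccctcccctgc
Over all genes, the AP-1 motif stood in 7.09% of the 621 promoters of genes that rose, 4.5% of the 400 of genes that fell, 3.75% of the 9466 of genes tested, and 6.6% of all 27305 promoters in the table. The CArG box was in 2.74%, 2%, 1.06% and 1.14% of these, and the NF-kB motif in 3.06%, 3%, 2% and 1.73%. A match is a description of the letters and not a site of binding.

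CAVIN2, a coat protein of caveolae, fell furthest, with 7.08 and 11.6 CPM in untreated, 5.68 and 14.8 in Fc, 0.321 and 0 in EGFlow, and 0.936 and 0.109 in EGFhigh libraries (log2FC -4.74 ± 0.62 (SE), adjusted p = 9.99e-05). CYP1A1, a target of the aryl hydrocarbon receptor that oxidizes foreign compounds, had 30.1 and 11.8 CPM in untreated, 33.4 and 9.38 in Fc, 2.14 and 2.62 in EGFlow, and 1.78 and 0.869 in EGFhigh libraries (log2FC -3.50 ± 0.44 (SE), adjusted p = 7e-05). SOX2, a transcription factor of squamous progenitors, had 45.6 and 11.1 CPM in untreated, 48.5 and 9.98 in Fc, 5.13 and 2.52 in EGFlow, and 4.87 and 2.28 in EGFhigh libraries (log2FC -2.95 ± 0.50 (SE), adjusted p = 0.00092). For CYP1A1 and SOX2 both controls numbered 3 were higher than both controls numbered 4, and all 4 EGF libraries were lower than either. CXXC5, a zinc finger protein, went from 91.2–94.4 CPM in controls to 17.8–21.7 CPM in EGF libraries (log2FC -2.19 ± 0.12 (SE), adjusted p = 1.7e-08), and the transcriptional regulator IRF2BPL from 183–230.3 to 44.5–57.5 CPM (log2FC -2.03 ± 0.12 (SE), adjusted p = 3.9e-08). These 2 genes varied little within each arm. SPRY1 (log2FC -2.38), a Sprouty protein that inhibits receptor signalling, CDKN2C (-1.96), an inhibitor of the G1 kinases, ZSCAN31 (-2.63), AHDC1 (-1.97), FIGN (-1.93), and the non-coding RNA PRECSIT (-1.94) also fell. The last of the 12 was the pseudogene GOLGA2P5 (-2.17), whose reads may be shared with its parent gene, so that its value is uncertain. Of the 11 of these with a promoter sequence, PRECSIT held AP-1 and CYP1A1 a CArG box whose letters include TATAAA.

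**Figure D2:**
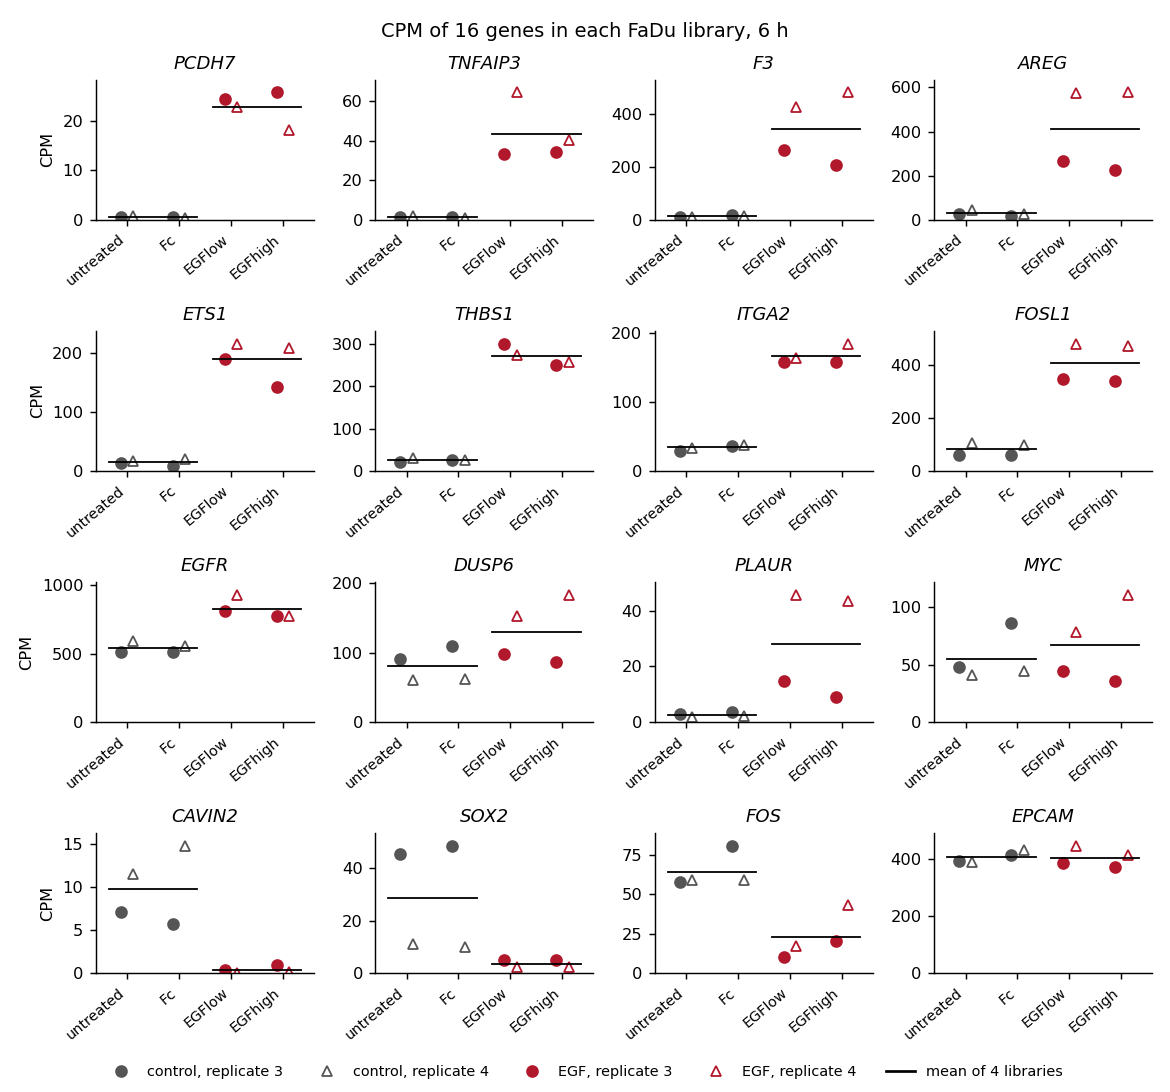
CPM (y, linear from 0) of 16 genes in each of the 8 libraries, by group (x), with circles for replicate 3, triangles for replicate 4, and a line for the mean of the 4 libraries of an arm. For PCDH7, THBS1 and EGFR both replicates with EGF lie above all controls, for DUSP6 and MYC only replicate 4 moves up, and EPCAM lies at one level in all 8.

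The genes were then grouped by function, from lists chosen with earlier results of these data known, and each group is given by its counts of DEGs and its median log2FC beside all genes tested (6.34% rose, 4.2% fell, median -0.0188). At the receptor, 1 of 3 tested members of the EGFR family rose and 1 fell. EGFR itself went from 512–597 CPM in controls to 777–932 CPM (log2FC 0.60 ± 0.10 (SE), adjusted p = 0.00067). ERBB3, the partner receptor that couples to PI3K, went from 37.05–57.6 to 24.98–32.7 CPM (log2FC -0.75 ± 0.15 (SE), adjusted p = 0.0046). The ligands and the proteases that shed them followed EGF in 1 direction: 7 of 10 tested rose, 0 fell, with a median log2FC of 0.775. Without a filter on low counts 6 of 14 rose and 0 fell (median log2FC 0.398). Amphiregulin, AREG, had 27.5 and 44.4 CPM in untreated, 15.8 and 26.5 in Fc, 267 and 575 in EGFlow, and 225 and 577 in EGFhigh libraries (log2FC 3.85 ± 0.34 (SE), adjusted p = 2e-06). HBEGF, the heparin-binding ligand, had 14.3 and 20.1 CPM in untreated, 16.4 and 16.97 in Fc, 175 and 205 in EGFlow, and 121 and 183 in EGFhigh libraries (log2FC 3.33 ± 0.17 (SE), adjusted p = 1.2e-08). For AREG both EGF libraries numbered 4 were higher than both numbered 3, and all 4 were above the controls.

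Of 18 tested inhibitors that feed back on the ERK pathway 7 rose and 1 fell (SPRY1), with a median log2FC of 0.667. PHLDA1 rose from 127–173 to 383–738 CPM (log2FC 1.92 ± 0.19 (SE), adjusted p = 5.6e-06), and the ERK phosphatase genes DUSP4 (log2FC 1.64 ± 0.27 (SE), adjusted p = 0.00085) and DUSP7 (log2FC 1.85 ± 0.38 (SE), adjusted p = 0.0048) rose too, DUSP7 with overlapping libraries. DUSP6, the phosphatase most often read as a gauge of ERK activity, was no DEG, with 91.1 and 60.2 CPM in untreated, 109 and 61.3 in Fc, 97.9 and 153 in EGFlow, and 86.5 and 183 in EGFhigh libraries (log2FC 0.69 ± 0.23 (SE), adjusted p = 0.065). It stood higher with EGF only in the libraries numbered 4. DESeq2 called it (adjusted p = 0.024), and in edgeR it passed as a DEG when the Fc library numbered 3 (log2FC 0.88), the EGFhigh library numbered 3 (0.85) or the EGFlow library numbered 3 (0.82) was left out. Of 27 immediate-early and ETS family transcription factors 12 rose and 3 fell (median log2FC 0.527). ETS1 had 13.8 and 16.8 CPM in untreated, 8.28 and 19.7 in Fc, 190.4 and 216 in EGFlow, and 143 and 209 in EGFhigh libraries (log2FC 3.68 ± 0.22 (SE), adjusted p = 3.6e-08). FOSL1 had 60.97 and 107 CPM in untreated, 60.5 and 96.4 in Fc, 346 and 482 in EGFlow, and 341 and 471 in EGFhigh libraries (log2FC 2.34 ± 0.19 (SE), adjusted p = 9.7e-07). Both rose, and their 4 EGF libraries lay above all controls. FOS went the other way, from 57.7–80.5 CPM in controls to 10.3–43.3 CPM (log2FC -1.5 ± 0.31 (SE), adjusted p = 0.0043), as did FOSB (log2FC -1.01 ± 0.21 (SE), adjusted p = 0.00503) and JUND (log2FC -0.65 ± 0.14 (SE), adjusted p = 0.0061). MYC did not pass the test, with 47.6 and 40.6 CPM in untreated, 86.7 and 44.7 in Fc, 44.4 and 78.1 in EGFlow, and 35.4 and 111 in EGFhigh libraries (log2FC 0.29 ± 0.31 (SE), adjusted p = 0.603), and its log2FC was -0.06 without the EGFhigh library numbered 4.

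Among the genes tested, the largest share of a list rose for inflammatory cytokines and NF-kB targets: 13 of 15 tested members rose and 0 fell, with a median log2FC of 2. Besides TNFAIP3 and IL11, ICAM1, the adhesion receptor for leukocytes, had 1.74 and 2.69 CPM in untreated, 3.09 and 4.99 in Fc, 25.97 and 32.5 in EGFlow, and 29.02 and 22.9 in EGFhigh libraries (log2FC 3.12 ± 0.27 (SE), adjusted p = 2e-06). Of 32 genes on this list 17 had too few counts to be tested. A gene near 0 in controls passed the filter on low counts only if it was high with EGF, which favours genes that rise. Without that filter 15 of 26 rose and 0 fell. This is a smaller share than among the targets of YAP and serum response factor given next (21 of 27 without the filter). Of 28 interferon-stimulated genes, 1 rose and 1 fell, and 3 rose without EGFhigh 3 or EGFlow 3 and 0 fell in 6 of 8 fits with 1 library left out. ISG20, an exonuclease, was the one that rose (log2FC 1.72 ± 0.27 (SE), adjusted p = 0.00049).

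Genes of the cytoskeleton and the matrix rose together. Of 25 targets of YAP and serum response factor, which respond to cell tension and actin, 19 rose and 0 fell (median log2FC 0.98), among them F3, TAGLN and CNN3, a calponin (log2FC 2.32 ± 0.36 (SE), adjusted p = 0.00049). Integrins and the basement membrane proteins they bind gave 15 that rose and 1 that fell of 26 (median log2FC 0.745). Thrombospondin, THBS1, had 20.6 and 30.1 CPM in untreated, 26.2 and 26.3 in Fc, 300.1 and 273 in EGFlow, and 249 and 258 in EGFhigh libraries (log2FC 3.39 ± 0.13 (SE), adjusted p = 1.2e-09). LAMB3, a laminin chain of the basement membrane, went from 37.2 ± 3.05 to 67.95 ± 13.04 CPM (mean ± SD, n = 4 libraries; log2FC 0.87 ± 0.14 (SE), adjusted p = 0.00082). The collagen receptor subunit ITGA2 rose from 28.7–38.2 to 157–184 CPM (log2FC 2.28 ± 0.12 (SE), adjusted p = 1.7e-08). LAMA5 was the member that fell (log2FC -0.80 ± 0.12 (SE), adjusted p = 0.00027). ITGB4, the integrin subunit of hemidesmosomes, did not pass the test, with 159 and 263 CPM in untreated, 168 and 268 in Fc, 182 and 244 in EGFlow, and 205 and 219 in EGFhigh libraries (log2FC -0.01 ± 0.16 (SE), adjusted p = 0.97). The sign of its log2FC changed in 4 of 8 fits with 1 library left out.

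Matrix proteases and the urokinase system had 8 of 15 tested members rise and 0 fall (median log2FC 1.05). Without a filter on low counts 9 of 23 rose and 0 fell (median log2FC 0.626). The urokinase receptor gene PLAUR had 2.79 and 1.87 CPM in untreated, 3.58 and 2.30 in Fc, 14.6 and 45.8 in EGFlow, and 9.08 and 43.4 in EGFhigh libraries (log2FC 3.42 ± 0.47 (SE), adjusted p = 0.00015). The maspin gene SERPINB5 had 5.46 and 10.9 CPM in untreated, 9.26 and 8.09 in Fc, 33.9 and 42.9 in EGFlow, and 21.9 and 35.4 in EGFhigh libraries (log2FC 1.99 ± 0.24 (SE), adjusted p = 4.8e-05). For PLAUR both EGF libraries numbered 4 were higher than both numbered 3.

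Epithelial genes did not fall as a group. Of 17 EMT transcription factors, cadherins and epithelial identity genes 4 rose and 2 fell (median log2FC 0.229). E-cadherin, CDH1, rose, with 47.3 and 33.6 CPM in untreated, 55.6 and 29.8 in Fc, 88.4 and 96.1 in EGFlow, and 68.5 and 83.9 in EGFhigh libraries (log2FC 1.02 ± 0.18 (SE), adjusted p = 0.0014). So did P-cadherin, CDH3 (log2FC 1.05 ± 0.14 (SE), adjusted p = 0.00013), and the tight junction gene CLDN1 (log2FC 3.02 ± 0.23 (SE), adjusted p = 4.2e-07). EPCAM had 394 and 390.4 CPM in untreated, 417 and 432 in Fc, 389 and 447 in EGFlow, and 375 and 415 in EGFhigh libraries (log2FC -0.01 ± 0.09 (SE), adjusted p = 0.98), and the arms overlapped. The 2 that fell were GRHL2, a transcription factor that maintains epithelial junctions (log2FC -1.04 ± 0.14 (SE), adjusted p = 0.00014), and CLDN4, another tight junction gene (log2FC -0.86 ± 0.11 (SE), adjusted p = 8.4e-05). The mesenchymal filament gene VIM was not tested, because it had 4 to 22 counts in the control libraries and 7 to 9 in the EGF libraries (0.4 to 2.71 and 0.652 to 0.977 CPM).

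Among keratins, 4 of 13 rose and 1 fell (median log2FC 0.12). KRT17, a keratin of activated and injured squamous epithelium, had 604 and 883 CPM in untreated, 585 and 851 in Fc, 3174 and 3400.0 in EGFlow, and 3021 and 3275 in EGFhigh libraries (log2FC 2.14 ± 0.13 (SE), adjusted p = 6.2e-08). Of the 11 squamous markers 2 rose, KRT17 and SFN, and 0 fell, with a median log2FC of 0.0063, so that the increase of their sum, from 1518–2005 CPM in controls to 4549–5121 CPM in EGF libraries, is not one of the markers in general. The simple epithelial keratins KRT8 (log2FC 1.08 ± 0.10 (SE), adjusted p = 4.9e-06) and KRT18 (log2FC 0.94 ± 0.09 (SE), adjusted p = 2.9e-06) rose, and KRT15, a keratin of resting basal cells, fell (log2FC -0.78 ± 0.16 (SE), adjusted p = 0.0033). Of 18 tested genes of squamous differentiation 0 rose and 0 fell (3 fell without Fc 4), with a median log2FC of -0.295. Without the Fc library numbered 4, 3 of them fell.

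Of 3 EMT lists that the study compared, the EMT hallmark of MSigDB and the partial EMT signature were published before and the EGFR-mediated EMT signature is its own. Of 110 tested genes of the EMT hallmark 34 rose and 0 fell (median log2FC 0.283), and of 80 of the partial EMT signature 24 rose and 0 fell (0.209). Without a filter on low counts 37 of 180 rose and 1 fell in the hallmark, and 27 of 93 rose and 0 fell in the partial EMT signature. Of 166 genes of the EGFR-mediated EMT signature 9 rose and 14 fell (-0.091). With 1 library left out 0 to 2 genes of the EMT hallmark fell (2 without EGFhigh 3). Of the EGFR-mediated EMT signature 6 to 13 then rose (6 without untreated 3) and 9 to 14 fell, with the 9 without the EGFlow library numbered 4. The study chose this last list on libraries of this series. It took DEGs that were exclusive to EGFhigh and shared by both cell lines, which left out genes called with other treatments. Neither the low count of this list at 6 h nor its direction is therefore independent evidence.

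Part of the cell division genes fell. Of 31 genes of DNA replication and mitosis 9 fell and 0 rose (median log2FC -0.395), and 7 to 13 fell with 1 library left out. TOP2A, the topoisomerase of dividing cells, went from 553–722 CPM in controls to 351–382 CPM (log2FC -0.79 ± 0.11 (SE), adjusted p = 0.00016), and the spindle checkpoint gene BUB1B fell as well (log2FC -0.94 ± 0.16 (SE), adjusted p = 0.0011). Of 19 G1 cyclins, CDK inhibitors and survival genes 4 rose and 0 fell. The inhibitor CDKN1A (p21) had 15.2 and 28.6 CPM in untreated, 11.6 and 17.6 in Fc, 124 and 193 in EGFlow, and 102 and 144 in EGFhigh libraries (log2FC 2.94 ± 0.25 (SE), adjusted p = 1.3e-06). The survival genes MCL1 (log2FC 1.18 ± 0.15 (SE), adjusted p = 9.6e-05) and BCL2L1 (log2FC 1.13 ± 0.16 (SE), adjusted p = 0.00021) rose. Cyclin D1, CCND1, did not pass the test, with 702 and 823 CPM in untreated, 719 and 837 in Fc, 722 and 694 in EGFlow, and 786 and 758 in EGFhigh libraries (log2FC -0.06 ± 0.10 (SE), adjusted p = 0.76), and control and EGF libraries overlapped.

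Ribosome biogenesis genes gave 11 of 54 that rose and 1 that fell, which no longer did in 6 of 8 fits with 1 library left out (median log2FC 0.334), and the changes were small: DDX21, a helicase of the nucleolus, went from 1074–1126 to 1999.9–2062 CPM (log2FC 0.88 ± 0.08 (SE), adjusted p = 3.1e-06), and RRP12 (log2FC 0.85) and BYSL (0.81) rose by as little. Of 20 ATF4 and amino acid stress targets 8 rose and 1 fell, the latter not without untreated 3, Fc 3 or EGFhigh 4 (median log2FC 0.449), with SESN2 (log2FC 1.06 ± 0.12 (SE), adjusted p = 2.1e-05), CEBPB (0.72) and CEBPG (0.71) named by the rule. For CEBPG the log2FC was 0.21 ± 0.13 in number 3 and 1.21 ± 0.13 in number 4, and for CEBPB 0.34 ± 0.12 and 1.06 ± 0.12. The glycolysis and hypoxia list had 4 that rose and 1 that fell of 22: NDRG1 (log2FC 2.55 ± 0.31 (SE), adjusted p = 5.1e-05) and the lipase inhibitor ANGPTL4 (log2FC 3.21 ± 0.48 (SE), adjusted p = 0.00034) rose and the glucose transporter SLC2A1 fell (log2FC -0.68 ± 0.15 (SE), adjusted p = 0.0063), by more in number 3 (-1.07 ± 0.12) than in number 4 (-0.27 ± 0.12). Cholesterol and fatty acid synthesis gave 1 that rose and 0 that fell of 26 (median log2FC -0.0541). Of 25 FOXO targets 3 rose (1 without the EGFlow library numbered 4), GADD45A among them (1.02), and 3 fell, TXNIP (log2FC -1.34 ± 0.15 (SE), adjusted p = 2.9e-05) and KLHL24 (-1.18) among them.

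Among other signalling pathways, 5 of 17 TGF-beta and BMP genes rose and 0 fell, with follistatin, FST, from 49.1–101 to 331–498 CPM (log2FC 2.46 ± 0.20 (SE), adjusted p = 1.2e-06), ID3 (log2FC 1.5 ± 0.15 (SE), adjusted p = 9.6e-06), and PMEPA1 (1.08). Of 18 NOTCH and WNT genes 4 rose and 4 fell, but 1 fell without any 1 of EGFlow 3, untreated 4, Fc 4, EGFhigh 4 or EGFlow 4, and 2 without untreated 3. Of these genes, the NOTCH ligand JAG1 (log2FC 1.44 ± 0.17 (SE), adjusted p = 3.3e-05), the transcription factor TCF7 (2.42) and the WNT inhibitor DKK1 (0.86, with 0.27 ± 0.19 in number 3 and 1.42 ± 0.19 in number 4) rose, and WNT7B fell (log2FC -0.73 ± 0.12 (SE), adjusted p = 0.00089). Of 24 growth factor-induced genes of PI3K, RAS and adaptor signalling 6 rose and 1 fell (0 in 6 of 8 fits with 1 library left out), with the ephrin EFNB2 (log2FC 3.09 ± 0.32 (SE), adjusted p = 1.1e-05), the ephrin receptor EPHA2 (log2FC 1.77 ± 0.38 (SE), adjusted p = 0.0055) and RASAL2 (1.13) highest. For EPHA2 the log2FC was 0.49 ± 0.23 in number 3 and 2.68 ± 0.23 in number 4.

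**Figure D3:**
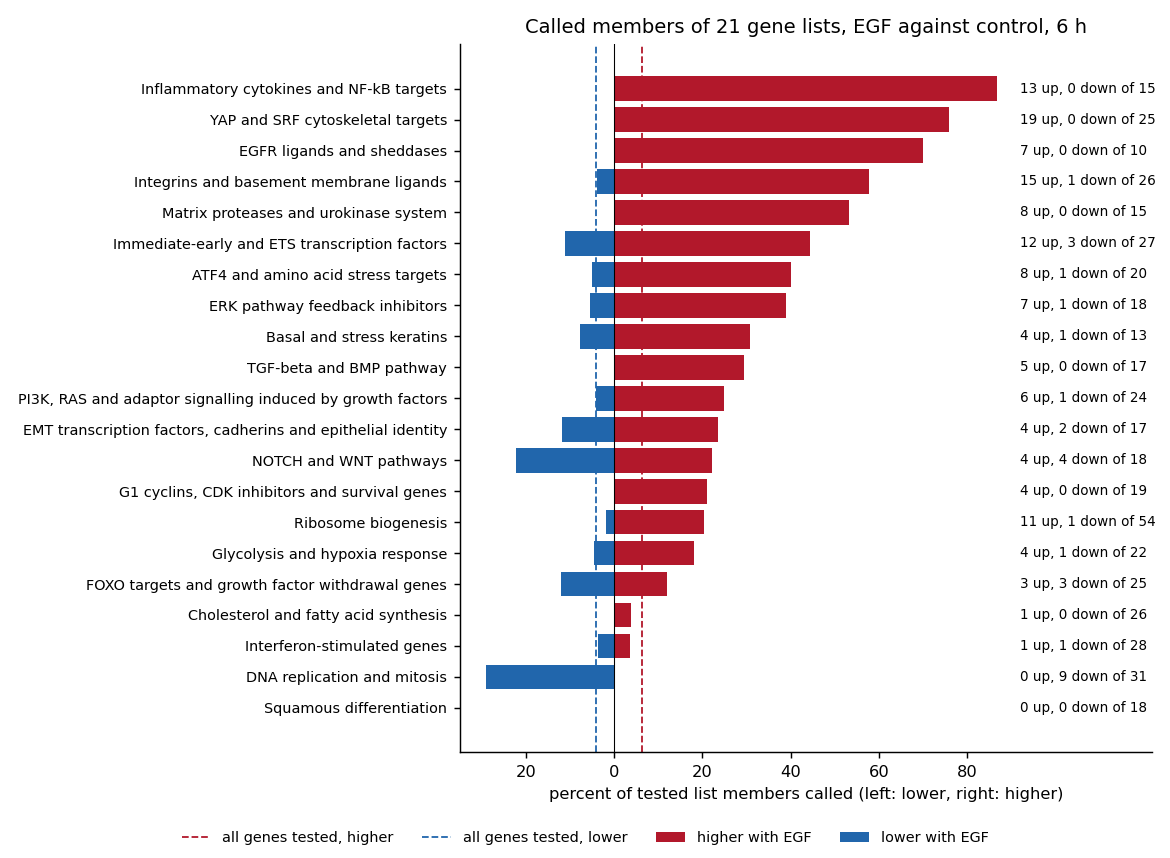
Percent of the tested members of 21 lists that rose (red, to the right) or fell (blue, to the left) with EGF at 6 h, with dashed lines at the 6.34% and 4.2% of all genes tested. The list of NF-kB targets (13 of 15) and that of YAP and SRF targets (19 of 25) have the largest shares that rose, and DNA replication and mitosis (9 of 31) the largest share that fell among those plotted. The list of EGFR family receptors, with 3 genes tested of which 1 rose and 1 fell, is not plotted.

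Whether the dose mattered was asked by comparing EGFhigh with EGFlow, 2 libraries each, in 1 fit over the 4 groups. Of 13574 genes tested 0 differed in edgeR and 0 in DESeq2, and an unadjusted p below 0.05 was found for 200 and 209. Over the 790 genes that rose with EGF the median log2FC of EGFhigh against EGFlow was -0.0399, with 304 above 0 and 486 below (38.5% above), and over the 523 that fell it was 0.0257 (54.3% above). Over all 12458 genes it was -0.00134 (6201 above and 6257 below, 49.8% above). The median standard error of a dose difference was 0.325, so that with 2 libraries a dose small differences of a gene between 9 nM and 1.8 nM were not detectable. Fc likewise gave 0 DEGs against untreated cells in both tools, where 134 and 135 had an unadjusted p below 0.05. Without a filter on low counts 1 gene differed. Taken alone, EGFlow gave 939 DEGs and EGFhigh 699 against the 4 controls, which share those controls and are not a test of dose.

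The EGF effect differed between the libraries numbered 3 and those numbered 4. This was noticed in the values above and then tested, in a fit with arm and number as groups (2 libraries in each). The 2 libraries of a group were the 2 doses, or untreated and Fc, of the same number. The p-values therefore measure the spread between libraries of the same number, and not that between repeats of a number. The labels do not say what the number stands for. Within number 3, EGF changed 1624 of 13574 genes (12%, 6.75% rose and 5.22% fell). Within number 4 it changed 2287 (16.8%, 9.99% rose and 6.86% fell). The effect itself differed between the numbers in 1068 genes (7.87%), 667 with a higher log2FC in number 4 (4.91%) and 401 with a lower one (2.95%). The count was 589 to 1096 with 1 library left out (589 without the EGFhigh library numbered 3). The direction of the DEGs was shared: all 790 that rose had a log2FC above 0 and all 523 that fell had one below 0 within each number, as a call over all 8 libraries favours. Their medians were 0.905 and 0.985 for those that rose and -0.851 and -0.965 for those that fell.

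ERK feedback inhibitors were among the genes that differed. Of 18 ERK feedback inhibitors 4 had a higher log2FC in number 4 and 0 a lower one (DUSP6, DUSP7, ERRFI1 and PHLDA1, named after their values had been seen). For PHLDA1 (0.53 ± 0.15, adjusted p = 0.023) this was not called in 5 of 8 fits with 1 library left out (0.39 to 0.51). Of all 12458 genes tested, 662 were higher in number 4 and 393 lower. The list was not alone in this: of 22 glycolysis and hypoxia genes 5 were higher and 2 lower. Of 20 ATF4 targets 4 were higher and 2 lower, and of 18 NOTCH and WNT genes 3 and 0. DUSP6 had a log2FC of -0.12 ± 0.13 within number 3 and 1.47 ± 0.13 within number 4 (difference 1.60 ± 0.19, adjusted p = 5.2e-07). DUSP7 had 0.45 ± 0.18 and 2.71 ± 0.18 (difference 2.26 ± 0.26, adjusted p = 3.8e-07). MYC changed sign, from -0.76 ± 0.20 to 1.15 ± 0.20 (difference 1.91 ± 0.28, adjusted p = 2.5e-05). Its fall in number 3 rests partly on the Fc library numbered 3, with 86.7 CPM against 40.6 to 47.6 CPM in the other controls. The difference was called in all 8 fits with 1 library left out (1.38 to 2.28). The differences were also called for EPHA2 (2.19 ± 0.32, adjusted p = 2.4e-05), PLAUR (2.53 ± 0.46, adjusted p = 0.00036), JAG1 (1.01 ± 0.16, adjusted p = 8.6e-05) and MCL1 (0.76 ± 0.13, adjusted p = 0.00026). CEBPG (1.01 ± 0.18, adjusted p = 0.00041) was higher in number 4 too. TXNIP (0.82 ± 0.17, adjusted p = 0.00197) and SLC2A1 (0.80 ± 0.17, adjusted p = 0.0021) fell less in number 4.

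Other differences rested on single libraries. The higher log2FC in number 4 of F3 (1.11 ± 0.23, adjusted p = 0.0019), NDRG1 (0.98 ± 0.20, adjusted p = 0.0011) and DKK1 (1.15 ± 0.26, adjusted p = 0.0041) was not called without the Fc library numbered 3 (0.67, 0.68 and 0.78), nor was that for CEBPB (0.73 ± 0.17, adjusted p = 0.0049) without EGFhigh 3 (0.53). For CDH1 (0.91 ± 0.22, adjusted p = 0.0077) the call was lost without Fc 3 (0.75), EGFhigh 3 (0.73) or EGFlow 4 (0.77). FOS (1.22 ± 0.38, adjusted p = 0.039) lost it without Fc 3 (0.92), EGFlow 3 (0.80) or EGFhigh 4 (0.38) and in DESeq2 (adjusted p = 0.37). Among genes with a lower log2FC in number 4, SPHK1 (-3.98 ± 0.97, adjusted p = 0.0074) rose less there and CAVIN2 (-4.35 ± 1.16, adjusted p = 0.015) fell further. The controls numbered 3 for SPHK1 and the EGF libraries numbered 4 for CAVIN2 were at or near 0, so that the size of either difference is uncertain. The call was lost for SPHK1 without untreated 3 (-3.08) and for CAVIN2 without EGFhigh 3 (-3.38) or EGFlow 4 (-3.50). In the DNA replication and mitosis list 9 of 31 genes had a lower log2FC in number 4 and 2 a higher one. Over all 12458 genes tested these counts were 393 and 662. HBEGF (3.27 ± 0.17 and 3.40 ± 0.17) and ITGA2 (2.27 ± 0.14 and 2.29 ± 0.14) showed no called difference.

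**Figure D4:**
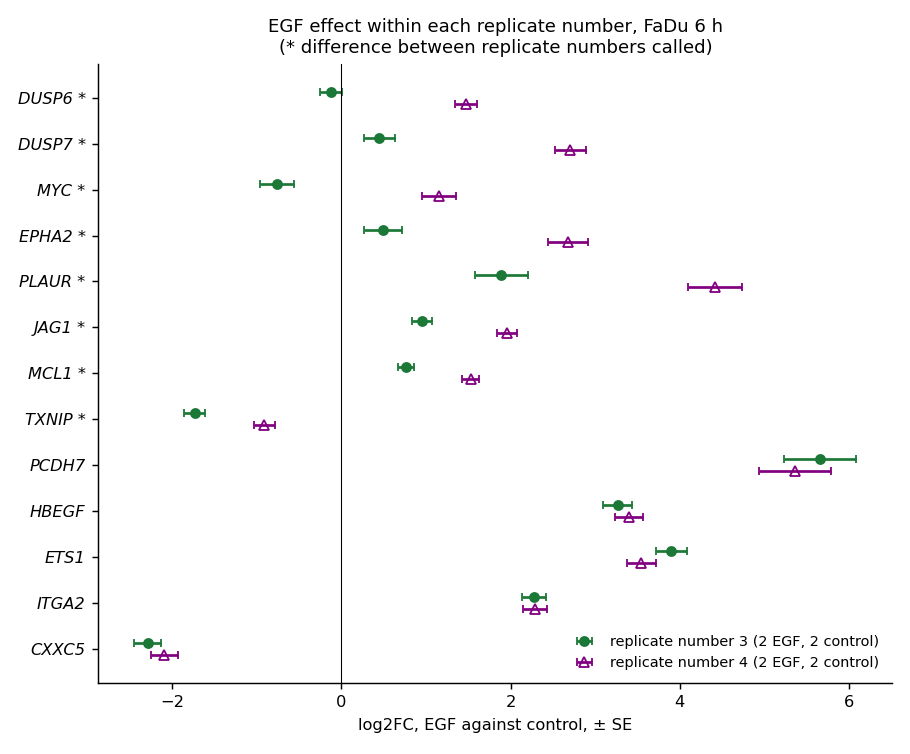
The log2FC of EGF against control within the libraries numbered 3 (circles) and 4 (triangles), 2 EGF and 2 control libraries each, with bars of ± 1 SE, and an asterisk where the difference was called. DUSP6, DUSP7, MYC and EPHA2 lie far apart between the numbers, and HBEGF and ITGA2 lie together.

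At 72 h the FaDu libraries numbered 3 and 4 were 2 with EGF (EGFlow 3 and EGFhigh 4) and 3 controls (untreated 4, Fc 3 and Fc 4). The 2 EGF libraries differ in both dose and number, and these cannot be told apart at 72 h. Each log2FC at 72 h pools the low and the high dose. In a fit over the 13 libraries of both times, EGF changed 1114 of 14435 genes at 72 h (7.72%), 717 upwards (4.97%) and 397 downwards (2.75%). This count was 247 without the EGFhigh library numbered 4 and 1453 without the EGFlow library numbered 3, so that the 72 h values rest on few libraries. Of the 790 genes that had risen at 6 h 309 were up at 72 h (39.1% of these and 43.1% of the 717) and 7 were down, whereas 5.65% of all genes were up. Of the 523 that had fallen 93 were down (17.8% of these and 23.4% of the 397) and 4 were up.

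The response itself differed between 72 h and 6 h in 213 genes (1.48%), 119 with a higher and 94 with a lower log2FC at 72 h. PCDH7 did not pass the test at 72 h, with 1.58–8.19 CPM in EGF and 3.17–8.94 CPM in control libraries, against 0.299–0.700 CPM in the 6 h controls (log2FC -0.11 ± 0.48, difference from 6 h -5.64 ± 0.71, adjusted p = 0.00019). The same held for TNFAIP3 (difference -5.58 ± 1.07, adjusted p = 0.0078), NR4A3 (-5.49 ± 1.06, 0.00796), TAGLN (-4.44 ± 0.58, 0.00027) and THBS1 (-3.57 ± 0.28, 1.1e-06), whose 72 h log2FC did not pass the test either. TNFAIP3 had 2.65–31.1 CPM in the 72 h controls and 2.21–13.7 CPM in EGF libraries of that time, against 0.699–1.87 CPM in the 6 h controls. With 1 library left out the 72 h log2FC took the other sign for PCDH7, TNFAIP3, TAGLN and THBS1. The difference for NR4A3 was not called without the EGFhigh 72 h library numbered 4 (-6.07). KRT17 turned from 2.14 at 6 h to -0.94 ± 0.23 at 72 h (adjusted p of the difference 1.8e-05), a decrease at 72 h whose call was lost without EGFlow 3 (-0.63) or untreated 4 (-0.70) of that time. Other genes were still raised at 72 h: AREG (log2FC 3.78 ± 0.49, adjusted p = 4.9e-05) and ETS1 (4.20 ± 0.36, 9.4e-07). FOS was lower at 72 h as well (-3.07 ± 0.50, 0.00059). The difference from 6 h was not called in the fit over all 13 libraries for AREG, ETS1 or FOS, and it was called for FOS without EGFlow 3 of 72 h (-2.70) or without a filter on low counts (-1.56).

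Kyse30 cells, from a squamous carcinoma of the oesophagus with amplified EGFR, were treated alike, and at 6 h 8 EGF and 6 control libraries gave 1733 DEGs of 12193 genes (14.2%), 927 upwards (7.6%) and 806 downwards (6.61%). Of the FaDu genes that rose, 762 were tested in Kyse30, and 308 rose there too (40.4% of these and 33.2% of the 927) and 8 fell, against 7.93% of all genes tested in both lines. Of 494 tested genes that fell in FaDu 158 fell (32% of these and 19.6% of the 806) and 7 rose. The effect differed between the lines in 281 of 14245 genes (1.97%), 169 (1.19%) with a higher and 112 (0.786%) with a lower log2FC in FaDu. These counts fell to 170 without the FaDu EGFlow library numbered 4 and to 183 without the untreated FaDu library numbered 3.

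Several genes responded more strongly in the FaDu libraries numbered 3 and 4 than in Kyse30. In numbers 1 and 2, 6304 of 11534 genes also tested in numbers 3 and 4 had a log2FC below 0, and 5230 had one above. Of the genes that rose, 575 of 747 tested there had one below 0, and 172 had one above. PCDH7 (-1.79), TNFAIP3 (-2.47), TAGLN (-2.60) and F3 (-5.48) were among those below 0, and none of them was called. These genes were also picked for a high log2FC in FaDu, which favours a larger value there. TAGLN had a log2FC of 0.48 ± 0.35 in Kyse30 (difference FaDu minus Kyse30 3.96 ± 0.46, adjusted p = 4.2e-06), and CLDN1 had -0.08 ± 0.13 (3.08 ± 0.25, 4.5e-09). PCDH7 (1.21 ± 0.34 in Kyse30, difference 4.27 ± 0.62), TNFAIP3 (1.98 ± 0.35, 3.03 ± 0.57), F3 (1.82 ± 0.31, 2.91 ± 0.48) and THBS1 (0.78 ± 0.23, 2.59 ± 0.33) rose in both lines and by more in FaDu. CDKN1A had 0.38 ± 0.24 in Kyse30 and did not pass there (difference 2.55 ± 0.40). CCND1 was the reverse case, raised in Kyse30 (0.76 ± 0.10, adjusted p = 1.5e-05) and not in FaDu (difference -0.84 ± 0.15, adjusted p = 0.00097). For FOSL1, raised in both, the difference was 0.68 ± 0.38 and was not called (adjusted p = 0.47).

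**Figure D5:**
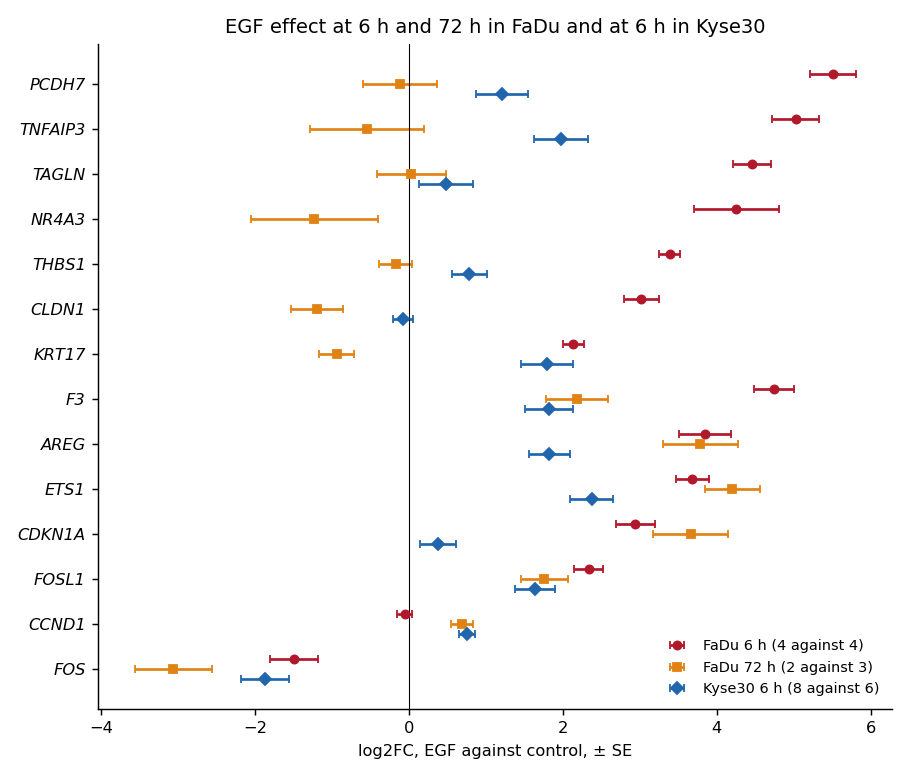
The log2FC of EGF against control, with bars of ± 1 SE, in FaDu at 6 h (circles, 4 libraries against 4), in FaDu at 72 h (squares, 2 against 3) and in Kyse30 at 6 h (diamonds, 8 against 6). PCDH7, TAGLN and THBS1 lie near 0 at 72 h, and TNFAIP3 lies at -0.55 ± 0.74 there. AREG and ETS1 stay high, and CCND1 is above 0 in Kyse30 and not in FaDu at 6 h. NR4A3 was not tested in Kyse30 and has no diamond.

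The FaDu libraries numbered 1 and 2 (3 with EGF, 4 controls) gave few DEGs. In edgeR 7 of 13062 genes differed (0.0536%), 4 upwards (0.0306%) and 3 downwards (0.023%), and 2310 had an unadjusted p under 0.05. DESeq2 called 1101. With 1 library left out the edgeR count ran from 0, without EGFlow 1 or EGFhigh 2, to 173, without Fc 1, and it was 119 without EGFhigh 1. Of the 790 genes that rose in numbers 3 and 4, 747 were tested there, 575 had a log2FC below 0, and the median was -0.649, against -0.0936 over all genes tested in both sets. Of these 11534 genes 6304 had a log2FC below 0 and 5230 had one above. When all 4 numbers were pooled, edgeR called 0 genes, with 1164 at an unadjusted p under 0.05.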

How the data were processed

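RNA was measured by 3′ RNA-seq (QuantSeq) in 84 libraries, 41 of FaDu, and the 8 libraries of the rule form the main comparison. The deposited values are raw read counts per gene, which the authors made with STAR and HTSeq on GRCh38 (hg38) according to the submitters' processing notes. Versions, annotation, strand setting and molecular identifiers are not given in the sources used here, so overlapping and antisense genes may share reads. Each file held 58395 genes, and rows that name no gene were left out; reads not mapped uniquely came to 45.71% to 50.25%. Symbols were matched for 57754 genes from a table of gene names and for 521 from GENCODE 29, and 120 had none.

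The counts were tested with edgeR 4.0.16 in R 4.3.3 (TMM scaling, filterByExpr with a minimum count of 10 and a total of 15, quasi-likelihood F test, two-sided, Benjamini-Hochberg adjustment), and the thresholds for a call were 0.05 for the adjusted p and 0.5 for the absolute log2FC. The main fit had EGF and control as its groups. Dose and Fc were tested with 4 groups, and time, line and replicate number as differences of log2FC in fits over both sets. DESeq2 1.42.0, RLE scaling, other filters, a replicate block, other controls and leaving out each library were alternatives. The comparison of replicate numbers, the pooling of all replicates and the NF-kB motif were added after the data had been seen. Totals of counts were 7889819 to 11095198, and limits from 3 counts cover counting error only. Scripts were tested on simulated data.

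Named genes were the 12 highest and 12 lowest DEGs with non-overlapping libraries and at least 5 CPM, up to 3 per list and direction, 12 genes of the study's subject, and the 3 largest differences by line and by time. Of these, 8 whose calls depended on single libraries are not described singly. Some further genes that the rule named are not reported here. The members and lists were chosen with earlier results of these data known. Promoter sequences are from RefSeq (GRCh38.p14).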

Additional observations from a re-analysis of the deposited data

Results flagged for a closer look

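In groups of 4 libraries, 1 library stood apart from the other 3 (Dixon's test) in 7 of 172 arms of 86 named genes, and chance flags about 1 in 20 groups. The Fc library numbered 3 was the one in 5 of these, all above the other 3 controls: EPHA2 with 35.6 CPM, GADD45A with 91 CPM, DKK1 with 39.2 CPM, MYC with 86.7 CPM, and FOS with 80.5 CPM. The untreated library numbered 3 was low for SPOCD1 (0.116 CPM). Among EGF libraries, EGFlow 4 was low for BYSL (80.1 CPM).

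The EGF effect differed between 72 h and 6 h by an interaction test in edgeR, with a log2FC at 72 h minus 6 h of -5.64 for PCDH7, -5.58 for TNFAIP3, -5.49 for NR4A3, -4.44 for TAGLN, -3.57 for THBS1 and -3.09 for KRT17. It differed between FaDu and Kyse30, with a log2FC in FaDu minus Kyse30 of 4.27 for PCDH7, 3.96 for TAGLN, 3.08 for CLDN1, 3.03 for TNFAIP3, 2.91 for F3, 2.59 for THBS1, 2.55 for CDKN1A and -0.835 for CCND1.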

How the results depend on the processing

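With 1 library left out, the DEG count ran from 1038 to 1403 for EGF at 6 h, from 0 to 0 for dose and for Fc, from 247 to 1453 at 72 h, from 118 to 364 for 72 h against 6 h, from 0 to 173 in replicates 1 and 2, from 1457 to 1828 in Kyse30, from 170 to 349 between lines, and from 589 to 1096 between replicate numbers. For EGF at 6 h it was 1315 with RLE scaling, 1575 in DESeq2 and 1511 without a filter, 771 against untreated libraries alone, 621 against Fc alone, 699 with EGFhigh alone, 2287 in replicate number 4 alone and 0 over all FaDu replicates. Fc gave 1 without a filter. DESeq2, no filter and the replicate block gave 426, 468 and 363 for 72 h against 6 h and 508, 490 and 489 between lines, and DESeq2 and no filter 1101 and 198 in replicates 1 and 2. Of 6 correlations of the deviations between numbers 3 and 4, the 2 above 0.1 were those within an arm (untreated with Fc 0.266, EGFhigh with EGFlow 0.3). Those between arms were -0.0251 to 0.066. Libraries of the same number were thus alike within each arm, so that the libraries of an arm may not be independent. The numbers were not shown to pair EGF with control libraries. The replicate block gave 1491 at 6 h. The causes were not tested. The log2FC took the other sign under the block for ITGB4 (0.021), with untreated libraries alone for EPCAM (0.050) and ITGB4 (0.0054), with EGFhigh alone for CCND1 (0.0042), with EGFlow alone for EPCAM (0.035), in replicate number 3 alone for DUSP6 (-0.12), MYC (-0.76), ITGB4 (0.24) and CCND1 (0.081), and in number 4 alone for EPCAM (0.076). Over all FaDu replicates it did for AREG (-1.32), PLAUR (-0.47), ANGPTL4 (-2.86), NDRG1 (-1.34), CNN3 (-0.68), SERPINB5 (-2.11), KRT8 (-0.032), KRT18 (-0.010), LAMB3 (-1.39), DUSP6 (-0.46), EGFR (-0.31), MYC (-0.21), CCND1 (0.22), JUND (0.11), ERBB3 (0.70), CLDN4 (0.28), KLHL24 (0.60) and TXNIP (0.22). With 1 library left out it did for MYC at 6 h (-0.058 to 0.60), EPCAM at 6 h (-0.055 to 0.031), ITGB4 at 6 h (-0.13 to 0.11), PCDH7 at 72 h (-1.78 to 0.59), TNFAIP3 at 72 h (-2.44 to 1.48), THBS1 at 72 h (-0.38 to 0.013), TAGLN at 72 h (-1.30 to 0.60), AREG at 72 h minus 6 h (-1.04 to 0.54) and ETS1 at 72 h minus 6 h (-0.25 to 1.04). At 2 libraries a group, small differences between doses were not detectable.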
